A study of Caenorhabditis elegans with 2 samples.

Results

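The peaks described here are weaker intron peaks from a chromatin immunoprecipitation (ChIP-seq) experiment on eGFP-tagged CEH-30 in Caenorhabditis elegans late embryos. Each overlapped a peak in both replicates. They number 1881 of the 30000 peaks in the relaxed list called on the pooled replicates. The relaxed lists were deposited as peaks and background together, so a member need not be a bound site. A peak was taken when it was not among the 545 peaks of the optimal list, the authors' reproducible set, and overlapped by at least 1 bp a peak in the relaxed list of each replicate. Its summit, the position of highest signal, had to lie inside a protein-coding gene, in no exon, and outside a window around each protein-coding 5′ end that reaches 1000 bp upstream and 500 bp downstream. The members were thus selected on their measured signal, which kept them off the optimal list, and on their measured overlap in both libraries. Such intron sequence, called eligible below, amounted to 27.98 Mb of the 6 nuclear chromosomes. The animals were of strain OP120, genotype unc-119(ed3) III; wgIs120, in which wgIs120 is the integrated eGFP-tagged ceh-30 transgene, so the protein measured is the tagged one made from that transgene. They were whole organisms of both sexes, and the 2 biological replicates form 1 group. No treatment or other genotype was compared and a control library was not analysed here, so values between libraries describe replicate agreement and nothing else. Binding in few cells at high occupancy and in many cells at low occupancy cannot be told apart in whole embryos.

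CEH-30 is a homeodomain protein of the BarH family, known in worms for the survival of the male CEM sensory neurons, which die in hermaphrodites. Homeodomain proteins bind short AT-rich words. Introns of worm genes can hold enhancers and promoters of shorter transcripts of the host gene, and they also hold small genes of their own, among them tRNA genes read by RNA polymerase III and snoRNA genes.

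To show what lies under these peaks, the summit windows of 6 of the 7 strongest members are given first, 50 bp to either side of the summit. They are followed by the strongest member in a homeobox gene (ttx-1), the strongest in an axon guidance gene (sax-3), and 2 of the 5 strongest members that hold a homeodomain word (E01G4.3 and T03G6.3), of which swt-5, among the first 6, is another. Letters are the plus strand of the RefSeq copy of WBcel235, which is ce11. Capitals mark the words counted below on either strand: the homeodomain words (TAATTG and TAATTA, and likewise TAAACG), the CG-containing words (GACGCA, then GCGCCA, then CGCGCA), the repeat GAGAGA, and GTTCGANNC, which is part of the internal B box promoter element of tRNA genes.
W01D2.3, II:14801204-14801304: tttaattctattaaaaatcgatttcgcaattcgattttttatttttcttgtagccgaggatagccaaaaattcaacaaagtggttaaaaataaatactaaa
srt-52, V:53469-53569: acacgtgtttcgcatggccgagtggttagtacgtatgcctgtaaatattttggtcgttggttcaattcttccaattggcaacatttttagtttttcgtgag
Y67D8A.2, IV:3227825-3227925: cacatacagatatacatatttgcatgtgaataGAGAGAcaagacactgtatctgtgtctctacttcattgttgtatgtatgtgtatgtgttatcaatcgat
swt-5, V:9503492-9503592: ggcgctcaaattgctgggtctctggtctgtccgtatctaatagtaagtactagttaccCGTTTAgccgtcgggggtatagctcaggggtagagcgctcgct
sel-8, III:3620783-3620883: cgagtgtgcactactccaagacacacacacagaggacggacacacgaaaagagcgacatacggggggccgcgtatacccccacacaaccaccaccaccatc
W03C9.6, II:11959360-11959460: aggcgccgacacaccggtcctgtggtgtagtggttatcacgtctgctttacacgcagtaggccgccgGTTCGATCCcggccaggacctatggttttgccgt
ttx-1, V:20056594-20056694: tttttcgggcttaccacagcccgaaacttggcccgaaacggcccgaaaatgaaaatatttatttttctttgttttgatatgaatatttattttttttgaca
sax-3, X:3457060-3457160: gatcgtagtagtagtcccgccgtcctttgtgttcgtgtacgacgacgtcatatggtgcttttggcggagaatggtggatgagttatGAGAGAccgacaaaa
E01G4.3, II:13461695-13461795: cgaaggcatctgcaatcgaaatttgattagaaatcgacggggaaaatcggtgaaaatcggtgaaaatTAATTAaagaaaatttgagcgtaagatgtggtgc
T03G6.3, X:2613285-2613385: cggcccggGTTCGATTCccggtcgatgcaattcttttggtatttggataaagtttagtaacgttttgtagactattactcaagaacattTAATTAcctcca
The windows differ widely in composition: the one in W01D2.3 was 24.8% G and C and the one in W03C9.6 was 60.4%. Of the 6 strongest shown, the one in swt-5 lies 20 bp from a tRNA gene and the one in W03C9.6 has its summit inside a tRNA gene. The window in E01G4.3 has its summit 10 bp from a miRNA gene, and that in T03G6.3 lies 22 bp from a tRNA gene.

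The share of weaker intron peaks that overlapped both replicates lay below that in promoter windows and near that in distal intergenic sequence, and differences between positions were not tested. Of 9181 weaker intron peaks 1881 overlapped both replicates, or 20.5% (95% exact binomial interval 19.7 to 21.3, for the counting of peaks only). Over all 29455 pooled peaks outside the optimal list, intron peaks included, the share was 22.9%, and over those outside introns it was 24.1%. It was 28.9% in promoter windows, 21.5% in distal intergenic sequence and 18.02% in exons. Asking for only 1 of the libraries would take in 5545 intron peaks that overlap replicate 1 or 3804 that overlap replicate 2. These counts were made with a rule that allows an overlap of 1 bp and say nothing of chance overlap, which was not tested. The replicate 1 list covered 11.1% of the eligible intron bases and the replicate 2 list 5.70%.

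The pooled signal, the authors' peak height, ran from 10.1 to 38.6 among the members, with quartiles of 14.4, 17.7 and 20.99. The rule sets its upper end: the strongest member, in W01D2.3, had a pooled signal of 38.6 and pooled rank 556, and the weakest of the 94 optimal intron peaks, in par-1, had 38.9 and rank 545. The peaks that the members overlap had a median signal of 8.72 in replicate 1 (5.61 to 57.1) and of 10.1 in replicate 2 (7.77 to 38.7). Each list has its own scale, so signals were ranked only within a list. The replicate lists also differ in length, with 30000 and 17926 peaks, so the same number of first peaks is a different share of each. Within the first 545 peaks few members were found: 8 overlapped a peak within the first 545 of both replicate lists, 24 did so in replicate 1 only, 22 in replicate 2 only and 1827 in neither. A wider limit of the first 5000 peaks in both lists took in 210 members.

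Most of the weakest members fell short of a 50% overlap in at least 1 replicate. With members divided into 4 equal bins of pooled signal, from lowest to highest, the share that overlapped a peak of each replicate by at least 50% of both peaks was 26.2%, 67.4%, 83.4% and 91.1%. The median distance from the pooled summit to the replicate 1 summit was 170, 50, 31 and 22 bp in the same order, and to the replicate 2 summit 98, 40, 23 and 20 bp. To the nearest overlapping summit rather than that of the strongest overlapping peak, the medians were 135, 45.5, 26.5 and 20 bp in replicate 1 and 94.5, 39, 21 and 19 bp in replicate 2. The lowest bin stood apart from the other 3 on each measure, and the highest had summits closest to those of the replicates. Among all members 1261 (67.0%) had such an overlap in both replicates, against 96.8% of optimal intron peaks.

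Some members lay beside a stronger pooled peak and overlapped the same replicate peak. A member's replicate peak is here the strongest that it overlaps, and 258 members overlapped more than 1 in a replicate. Of the 1881 members 201 (10.7%, 9.33 to 12.2) took a replicate peak that a stronger pooled peak took as well, and 163 did so in both replicates. By bin of signal, lowest to highest, the shares were 32.8%, 5.32%, 2.34% and 2.34%. Only a stronger pooled peak counts here, and a weaker member has more of these. Part of the fall across bins therefore follows from the definition. Where a member shares a replicate peak, its value in that replicate is that of the neighbour. Counted over every replicate peak a member overlaps, 202 members had no peak of their own in at least 1 replicate and 165 had none in either. Of the 8 members within the first 545 peaks in both replicates, 7 shared a replicate peak in this way. The members rested on 1752 distinct replicate 1 peaks and 1755 distinct replicate 2 peaks, and 12 members overlapped an optimal peak. Without the 201, the remaining 1680 members lay in 1322 genes, against 1361 genes for all members.

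**Figure D1:**
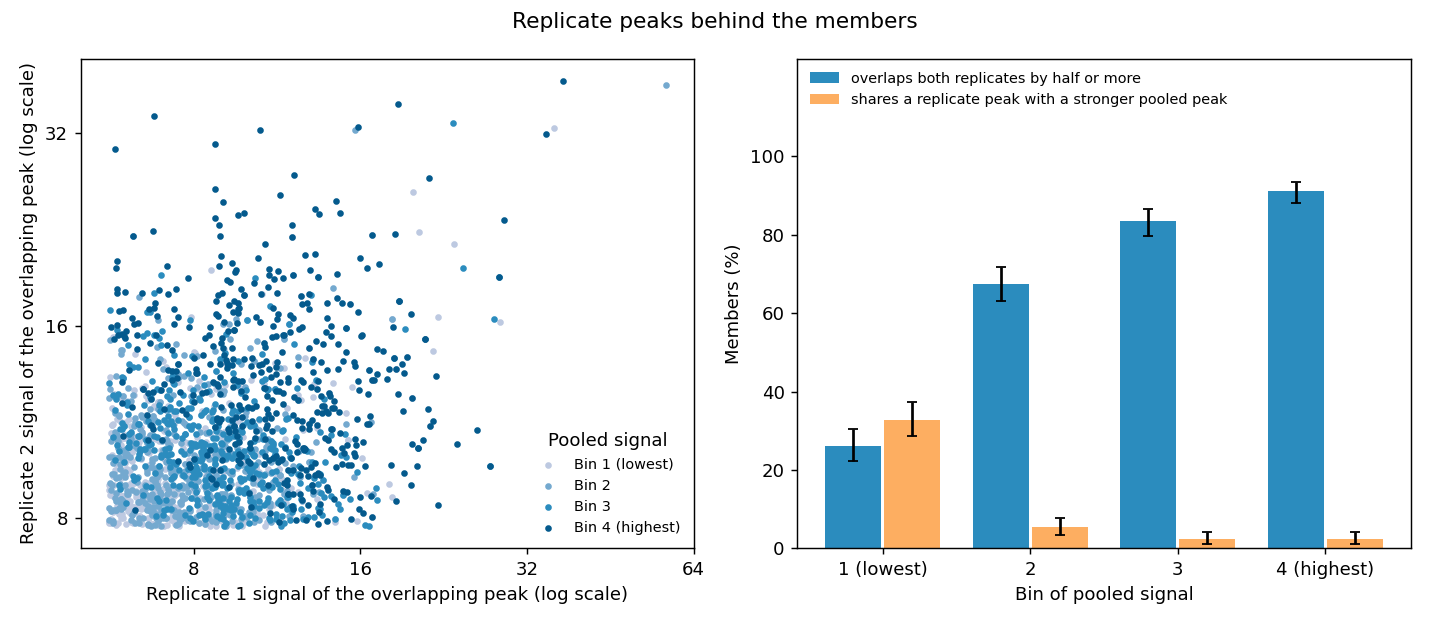
Left, signal of the replicate 1 peak (x) and the replicate 2 peak (y) that each of the 1881 members overlaps, on log scales, coloured by bin of pooled signal. Right, percent of members in each bin that overlap both replicates by at least 50% (blue) and that share a replicate peak with a stronger pooled peak (orange), with 95% exact binomial intervals. The blue share is 26.2% in the lowest bin and 91.1% in the highest, and the orange share is 32.8% in the lowest and 2.34% in the highest. Only stronger pooled peaks count for the orange share, so part of its fall follows from the definition.

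The order of signals in one replicate was weakly related to that in the other. Over the 1881 members Spearman's rho between replicate 1 and replicate 2 signal was 0.161 and Pearson's r of log2 signal was 0.255, as a description across peaks that come from the same 2 libraries. Within the highest bin rho was -0.200, and within the next lower one -0.278. Without the members that took a replicate peak of a stronger pooled peak, rho was 0.123. The pooled signal is made from both libraries, sets the bins and kept the members off the optimal list. Neither the rho within a bin nor that over all members is therefore independent of the selection. The optimal intron peaks had a rho of 0.327 (n = 94), and weaker reproducible promoter peaks 0.233 (n = 2591). As the optimal peaks were selected on other terms, their rho is not directly comparable.

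The members were spread unevenly along the chromosomes, with more per eligible base on chromosomes I, II and III than on IV, V and X. Chromosome III held 78.9 members per Mb of eligible intron (95% exact Poisson interval 70.9 to 87.5), chromosome I 77.1 and chromosome II 73.6. Chromosome V held 63.3, chromosome IV 57.4 and the X chromosome 54.3 (47.9 to 61.4). The mean over all eligible intron was 67.2 members per Mb. The interval of the X chromosome did not reach those of I, II or III, but the intervals cover counting only and the differences were not tested. When each chromosome was cut in 3 equal lengths, the density was 68.2 members per Mb in the left, 57.9 in the middle and 73.7 in the right part. Chromosome I held 397 members, 21.1% of all, on 18.4% of the eligible bases.

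Intron sequence near the start of a shorter annotated transcript held more members than the rest. The rule bars windows of gene 5′ ends, which leaves the 5′ ends of transcripts that start inside a gene. Windows of the same reach around these held 358 members (19.0%, 17.3 to 20.9), on 13.4% of the eligible bases. The density was 95.2 members per Mb inside the windows (85.6 to 106) and 62.9 outside (59.8 to 66.1). By position from the nearest transcript 5′ end it was 75.6 members per Mb from 1000 to 500 bp upstream, 115 in the last 500 bp upstream and 86.5 in the first 500 bp downstream. The highest density therefore stood just upstream of the internal transcript starts. The share inside these windows was much the same at each level of signal: from the lowest bin to the highest it was 18.9%, 18.1%, 19.6% and 19.5%, against 21.3% of optimal intron peaks and 15.3% of weaker intron peaks that did not recur.

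**Figure D2:**
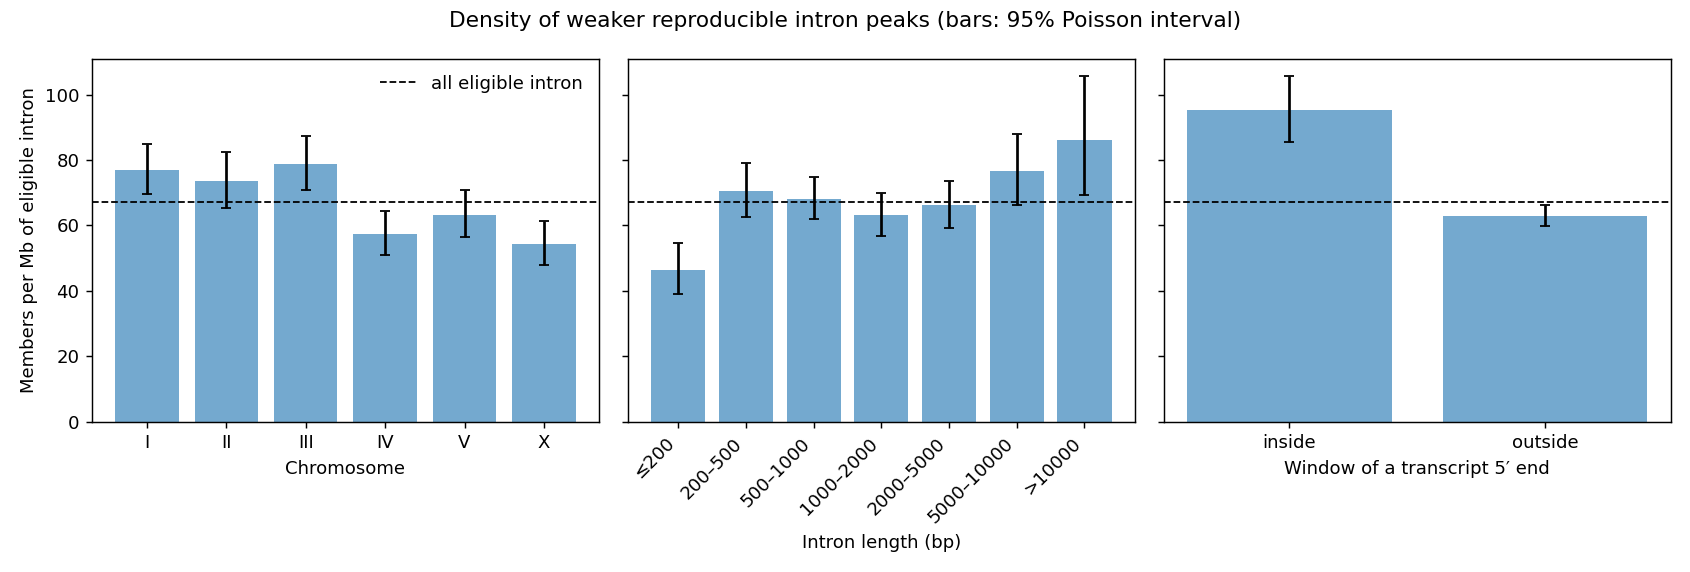
Members per Mb of eligible intron sequence by chromosome (left), by length of the intron (middle) and inside or outside the window of an annotated transcript 5′ end (right), with 95% exact Poisson intervals. The dashed line is the mean of 67.2 per Mb; the windows of transcript 5′ ends stand at 95.2 and introns of up to 200 bp at 46.4.

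Density differed little with distance from the nearest gene start over most of the range. The median member lay 2553 bp from the nearest gene 5′ end (501 to 26133 bp), and 71.0% had a 5′ end of their own host gene as the nearest. Density was 66.7 members per Mb up to 1000 bp, 63.0 from there to 2000 bp, 66.4 to 5000 bp, 65.8 to 10000 bp and 95.8 beyond it (81.7 to 112). Only 163 members lay that far out. By place in the gene, first introns held 76.4 members per Mb (68.9 to 84.6), middle introns 65.1 and last introns 58.5 (51.03 to 66.7).

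Short introns held fewer members per base. Introns of up to 200 bp, the most common kind, since the median intron with eligible bases was 97 bp long, held 142 members at 46.4 per Mb (39.1 to 54.7). From 200 bp up to 5000 bp the density lay between 63.1 and 70.5, then stood at 76.6 in introns of 5000 to 10000 bp and at 86.1 (69.3 to 106) in longer ones. The median intron with a member was 1075 bp long, and an eligible base picked at random lies in an intron of about the same length, with a median of 1035 bp. The peaks are 344 bp wide, so a summit in a short intron belongs to a peak that spreads over its exons.

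Base composition differed between the stronger and the weaker members. The median summit window was 35.6% G and C, against 36.1% in windows 300 bp to either side, and the median difference was 0 points. From the lowest to the highest bin the median summit window was 33.7%, 33.7%, 35.6% and 39.6% G and C, against flanks of 35.6%, 35.6%, 36.1% and 36.6%. Summits were thus poorer in G and C than their flanks in the lower bins and richer only in the highest, where 61.6% of members exceeded their flanks. Optimal intron peaks had 48.5% at the summit against 37.1% in the flanks. Weaker intron peaks that did not recur had 32.7% against 35.1%, and whole tiles of eligible intron of the same length had a median of 31.7%.

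The flanks differ from the summits in what they contain, since 25.8% of flank windows were centred in an exon, where no member's summit can be. Among the 41.1% of members whose flanks lay wholly in eligible intron, the summit window was 37.6% G and C against 35.1% in the flanks, and 62.0% of members exceeded their flanks. From lowest to highest bin that share was 51.9%, 53.1%, 67.8% and 72.9%. With flanks of the same kind of sequence, the summits were richer in G and C in the 2 upper bins and close to their flanks in the 2 lower.

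**Figure D3:**
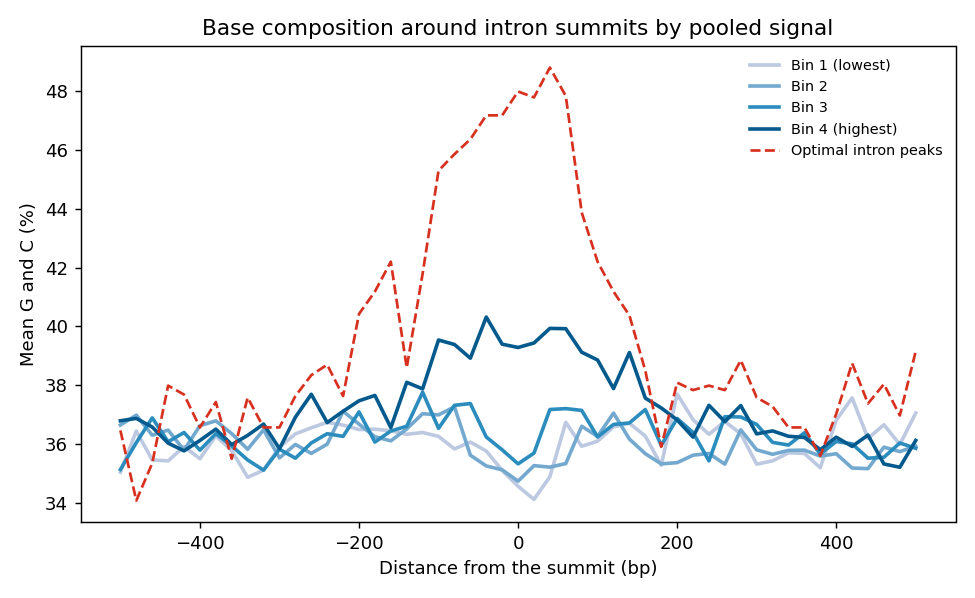
Mean percent of G and C against distance from the summit in bp for the members in 4 bins of pooled signal (blue, light to dark) and for optimal intron peaks (red, dashed). The highest bin has a broad maximum at the summit below the much higher one of the optimal peaks, and each of the lower bins dips there.

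Homeodomain words differed little between summits and flanks. The 3 words, taken as a family, stood in 14.4% of summit windows (12.8 to 16.02), against 14.0% of left and 12.1% of right flank windows. The excess over the mean of both flanks was 1.30 points, and 0.986 points among peaks taken on replicate 2 alone and 2.43 among those taken on replicate 1 alone. Among 237758 tiles of eligible intron of the same length the share was 15.5%. It was lower at higher signal: from the lowest bin to the highest it was 18.5%, 16.2%, 11.9% and 10.8%, and it was 7.45% in optimal intron peaks. As these words are rich in A and T, the share moved opposite to the G and C content given above. The part of composition in it was not tested.

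Words with CG showed the reverse order. A word of this family stood in 8.77% of summit windows (7.53 to 10.1), against 5.05% of left and 5.74% of right flank windows and 5.28% of intron tiles. From lowest to highest bin the share at the summit was 7.66%, 7.66%, 8.30% and 11.5%, in optimal intron peaks it was 28.7% and in intron peaks that did not recur 5.86%. The repeat GAGAGA, chosen after its values were seen, stood in 8.56% of summit windows (7.33 to 9.92), against 5.93% of flank windows and 4.37% of intron tiles. Its shares by bin were 6.17%, 6.38%, 8.09% and 13.6%, against 34.0% in optimal intron peaks. The excess of CG words at the summit over the mean of both flanks was 3.38 points, against 2.42 among intron peaks taken on replicate 2 alone and 0.947 among those taken on replicate 1 alone. For CG words and GAGAGA the highest bin thus lay between the other members and the optimal intron peaks. The CG words were chosen from the optimal peaks of these same data, so their share there is not independent of that choice. A word in a window is a run of letters and does not show a bound site.

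Members at small RNA genes were few and concentrated among the strongest. A tRNA, snoRNA, snRNA or miRNA gene lay within 200 bp of 62 summits (3.30%, 2.54 to 4.21). It was a tRNA gene for 48 of them, a snoRNA gene for 9, a miRNA gene for 3 and an snRNA gene for 2. From lowest to highest bin the share of members was 1.49%, 1.06%, 1.91% and 8.70%, and of optimal intron peaks 36.2%. Among intron peaks taken on replicate 1 alone the share near a small RNA gene was 1.70%, and among those taken on replicate 2 alone 2.16%. Seen from the genes, 48 of the 242 tRNA genes in eligible introns (19.8%) had a member within 200 bp and 17 had an optimal intron peak. For snoRNA genes the counts were 8 with a member and 15 with an optimal intron peak, of 122. These shares and counts were not set beside the share of eligible bases that lie within 200 bp of such genes. The B box word GTTCGANNC stood in 34 summit windows (1.81%), against 0.904% of flank windows and 0.654% of intron tiles, and 18 of the 34 had a tRNA gene within 200 bp. This word was also chosen after values were seen.

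Near-identical copies of tRNA and snRNA genes can share reads, so the signal at them is uncertain. In 35 members (1.86%) at least 50% of the 32-base words of the summit window occurred elsewhere in the genome. In the highest bin the share was 3.40%. The member in C06G1.1, with its summit inside a tRNA gene, had 65.7% such words, and the one in mpc-1, which codes for a mitochondrial pyruvate carrier subunit and hosts an snRNA gene at the summit, had 81.4%.

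Of the 20 strongest members, 5 lay within 200 bp of a small RNA gene, 3 in the window of a transcript 5′ end and 8 in the first intron of their host. The overlapped peak was outside the first 545 peaks of both replicate lists in 4 of them. As the lists differ in length and their depths are unknown, ranks are given as a percent of each list, counted from the strongest peak. The one in W01D2.3 (pooled signal 38.6) overlapped a peak of signal 8.73 in replicate 1, at 34.7% of the list, and of 30.8 in replicate 2, at 1.20%. That in fkh-7, a forkhead transcription factor gene (35.2), overlapped one of 5.77 in replicate 1, at 95.03% of the list, and of 30.3 in replicate 2, at 1.27%. The one in daf-5 (36.7), whose product is a SKI-like partner in the dauer TGF-beta pathway, stood at 1.30% in replicate 1 and 16.6% in replicate 2. In lin-42, the worm period homologue that times larval development, the member (36.0) stood at 2.93% and 4.38% in the same order. By this measure 14 of the 20 stood higher in replicate 2, and as the lists were called on libraries of unknown depth, the difference was not tested.

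The member in sel-8, a gene for a nuclear partner of Notch receptors (37.04), lay in an intron of 8533 bp, 6309 bp from the gene's 5′ end. The member in srt-52, a chemoreceptor gene, had 38.4, and those in slc-36.4 and Y67D8A.2 had 37.97 and 37.5. In swt-5 the member had 37.5 and in W03C9.6 36.9, both at tRNA genes as said above. Y59C2A.2 held one of 36.7, Y53G8AM.8 and C06G1.1 each one of 36.4, and psd-1, for phosphatidylserine decarboxylase, and C09H10.5 likewise 36.4. The member in T24H7.2 (36.2) lay 46 bp from a snoRNA gene. The rest were those in lsy-22 (35.8), F19B6.1 (35.4), mpc-1 (35.2) and F56A8.3 (35.05).

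The members lay in 1361 genes, 8.46% of the 16078 protein-coding genes with eligible intron. Most host genes had a single member: 1035 had 1, 218 had 2 and 63 had 3, and 326 genes with 2 or more held 846 members. Hosts were genes with much intron, with a median of 3.99 kb of eligible sequence against 0.704 kb for all genes that have any. The tenth of genes with most eligible sequence held 51.7% of its bases and 56.0% of the members. Over all 16078 genes, Spearman's rho of members with eligible bases was 0.343. Densities per eligible base are therefore given beside host counts below.

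Among the 45 genes with at least 4 members, hmr-1 had 12. It codes for the worm cadherin of adherens junctions, spans I:11075755-11134667 on the minus strand, and held 47.3 kb of eligible intron, or 254 members per Mb. The members lay in 5 of its introns with pooled signals of 10.3 to 32.6, and 3 of the 12 took the replicate peak of a stronger neighbour. In its intron of 18116 bp 6 of the members lay, and hmr-1 also held 2 optimal intron peaks. F09A5.3 followed with 7 members, all in 1 intron of 9158 bp, at 737 members per Mb of its 9.50 kb. Their pooled signals were 12.3 to 32.6, and 2 of the 7 shared a replicate peak with a stronger neighbour.

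The other genes with 6 or 7 members were mpz-1, lsy-22, lmd-3, lit-1, egl-4 and ppfr-1. The gene mpz-1, for a protein with many PDZ domains, had 7 members in 6 introns, none of which shared a replicate peak. In lsy-22, a gene for a Groucho-related corepressor, all 6 lay in the first intron of 11385 bp, and its strongest (35.8) overlapped a peak of signal 28.5 in replicate 1 and one of 19.03, at 5.03% of the list, in replicate 2. A weaker member beside it in lsy-22, with pooled signal 18.8, took the same peak in both replicates. Of the 6 members in lit-1, the Nemo-like kinase of the Wnt pathway, 4 lay in the window of a transcript 5′ end, as did 4 of the 6 in egl-4, which codes for a cGMP-dependent protein kinase. In lmd-3, for a protein with a LysM domain, the pooled signals were 11.9 to 34.4 and none of the 6 shared a replicate peak. In ppfr-1, which codes for a regulatory subunit of protein phosphatase 4, they were 12.6 to 21.2.

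The other 37 hosts had 4 or 5 members each. Those with 5 were fkh-7, pqn-41, Y48C3A.5, F53A10.2, mnk-1, cgef-1, unc-53, unc-83, shc-2, daf-2, Y37A1A.4, daf-16, Y52B11A.3, kin-1, gcn-1, tpa-1 and kcnl-1. Among these, daf-2 codes for the insulin receptor, daf-16 for the FOXO factor downstream of it, kin-1 for the catalytic subunit of protein kinase A and unc-83 for a protein that links nuclei to microtubule motors. Those with 4 were Y67D8A.2, Y59C2A.2, daf-5, lin-42, T28B11.1, Y111B2A.12, W05B5.1, tent-5, ldb-1, M04F3.5, kup-1, vab-10, osm-9, ptp-3, W10C4.1, spat-2, hpo-29, C17E4.6, F53E4.1 and aakg-1. Density in the 45 genes ran from 121 members per Mb in vab-10, a spectraplakin gene with 33.1 kb of eligible intron, to 1287 in osm-9 with 3.11 kb. No test set these counts against intron length.

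Gene lists were then compared by members per eligible base. Each ratio below sets the list's members per Mb against that over all protein-coding genes, with a 95% exact Poisson interval for the list's count. As in the densities by place in the gene and by intron length, a base in introns of several genes counted once for each gene. The density over all genes was therefore slightly below the 67.2 members per Mb given above. None of the ratios was tested, and the share of all genes that host a member, 8.46%, is the background for the host counts. The intervals of 3 lists did not include 1, with Wnt pathway genes above it and ion channel and chemoreceptor genes below it.

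Among transcription factors, 13 of 96 homeobox genes hosted 14 members, with a ratio of 0.801 (0.438 to 1.34). The strongest was in ttx-1, the Otx gene of the AFD thermosensory neuron, at pooled signal 30.0, with 13.2 in replicate 1 and 14.2 in replicate 2. Next were vab-7, an even-skipped homologue, at 24.5, nob-1, a posterior Hox gene, at 21.5, and ceh-89 at 20.6. Counted from the strongest peak, ttx-1, vab-7, nob-1 and ceh-89 stood at 7.72%, 3.67%, 70.1% and 14.8% of the replicate 1 list. In replicate 2 they stood at 13.4%, 88.9%, 32.3% and 68.4%. Of 268 nuclear hormone receptor genes 19 hosted 26 members (0.894, 0.584 to 1.31), led by nhr-46 at 33.3, nhr-19 at 30.6 and nhr-85 at 29.7, with sex-1, an X-signal element of sex determination, at 29.1. Of 33 basic helix-loop-helix genes 4 hosted 6 members (1.52, 0.557 to 3.31), among them hlh-30, the TFEB homologue, at 28.5, the MyoD homologue hlh-1 at 23.9, hlh-33 at 20.5 and cky-1 at 18.8. In that order these stood at 32.7%, 79.1%, 46.9% and 38.6% of the replicate 1 list. In replicate 2 they stood at 4.45%, 8.45%, 8.07% and 26.7%.

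Among signalling and adhesion genes, 20 of 71 axon guidance and cell adhesion genes hosted 46 members (1.30, 0.954 to 1.74), of which 12 were those in hmr-1. The strongest apart from it were in sax-3, the Robo receptor, at 27.7, plx-1, a plexin, at 27.6, and unc-53 at 27.0. Of 24 Wnt pathway genes 7 hosted 11 members, a density of 173 per Mb and a ratio of 2.62 (1.31 to 4.68). Taken on replicate 1 alone the ratio was 1.78 and on replicate 2 alone 1.88. They were led by cam-1, a Ror receptor kinase, at 29.6, gsk-3, the glycogen synthase kinase, at 22.9, pop-1, the TCF factor, at 21.9, and the Frizzled receptor mig-1 at 19.4. The gene lit-1, named above as a kinase of the Wnt pathway, was not on this list, so its 6 members are not among the 11. The Wnt ratio therefore describes only the genes chosen for the list.

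Among effector genes of neurons and muscle, 34 of 244 ion channel and transmitter receptor genes hosted 47 members, with a ratio of 0.659 (0.484 to 0.876). The strongest was in ser-2, a tyramine receptor gene, at 26.8, with its summit 56 bp from a tRNA gene. The next was in osm-9, a TRPV channel gene, at 25.5, with its summit inside a tRNA gene and 67.1% repeated words in its window. Then came lgc-26 at 22.6 and egl-2, a potassium channel gene, at 22.5, whose window had 47.1% repeated words. Of 1227 serpentine chemoreceptor genes with eligible intron 26 hosted 27 members (0.548, 0.361 to 0.797, and 0.822 when peaks were taken on replicate 2 alone), led by srt-52 at 38.4, str-77 at 29.4, sre-48 at 25.6 and srh-31 at 23.05. Of 64 ciliated sensory neuron genes 9 hosted 15 members (1.32, 0.737 to 2.17), led by klp-6, a kinesin of the male ciliated neurons, at 32.2. In the klp-6 window 90.0% of the 32-base words occur elsewhere in the genome, so that signal is uncertain. The next was osm-9, followed by daf-19, the RFX factor of cilia, at 25.1 and dyf-19 at 20.7. Of 33 body wall muscle genes 5 hosted 5 members (0.529, 0.172 to 1.23), with hlh-1 at 23.9, dim-1 at 19.5, unc-22, the twitchin gene, at 18.7 and lev-11, the tropomyosin gene, at 18.5.

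Cell death and CEM survival genes, the setting in which ceh-30 is known, gave 7 hosts of 32 with 1 member each, at a ratio of 1.36 (0.547 to 2.80). The strongest was in csp-2, a caspase homologue, at pooled signal 23.4, with 12.5 in replicate 1 and 11.1 in replicate 2. The member in ced-4, the activator of the cell death caspase, had 21.3 in the pool, 9.01 in replicate 1 and 9.86 in replicate 2. In tra-1, the zinc finger gene that ends the sex determination cascade, the member had 18.6 in the pool, and in ced-3, the death caspase itself, 16.8. Counted from the strongest peak, the ced-3 member stood at 94.8% of the replicate 1 list and 27.9% of the replicate 2 list, and that in tra-1 at 46.6% and 25.8% in the same order.

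The remaining lists had little intron to hold a member. Of 83 genes with eligible sequence on the cuticle collagen list, col-99 alone hosted members. The stronger of its 2, of pooled signal 34.4, has its summit inside a tRNA gene and 51.4% repeated words in its window. With 18 introns, col-99 was counted because it was on the list. Whether its product is a cuticle collagen was not checked, so no member is shown to lie in a cuticle collagen gene. Ribosomal protein genes had none, on 1.93 kb of eligible sequence in 20 genes.

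**Figure D4:**
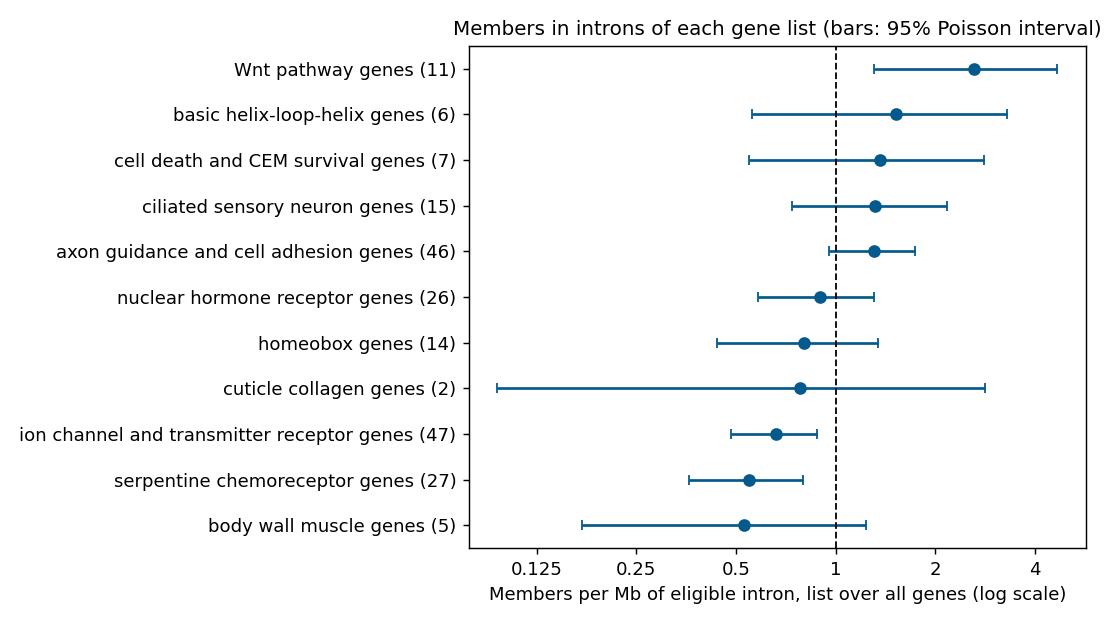
Members per Mb of eligible intron in each gene list over that in all protein-coding genes, on a log scale, with 95% exact Poisson intervals and the number of members in parentheses. Wnt pathway genes stand at 2.62 and serpentine chemoreceptor genes at 0.548; ribosomal protein genes, with no member, are not drawn.

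The intron members were set beside weaker reproducible peaks at other positions, and no difference between them was tested. Their median summit was 35.6% G and C, against 38.6% in promoter windows, 38.6% in distal intergenic sequence and 40.6% in exons. CG words stood in 8.77% of member summits, against 16.4% of promoter, 11.5% of distal intergenic and 6.60% of exon summits. Small RNA genes lay within 200 bp of 3.30% of members, against 4.58% of distal intergenic peaks and 2.55% of promoter peaks. The share with at least 50% overlap in both replicates was 67.0% for members, against 73.1%, 69.9% and 70.8% in promoters, distal intergenic sequence and exons.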

How the data were processed

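The authors deposited peak lists: relaxed lists for replicate 1 (30000 peaks), replicate 2 (17926) and the pooled replicates (30000), and an optimal list from the irreproducible discovery rate procedure, per the deposited file descriptions. Peak caller, aligner and threshold: not given in the sources used here. In each list the deposited signal is the authors' peak height, comparable only within a list, and the deposited score column was not used. No file holds read counts, so the depth is unknown, and intervals cover the counting of peaks only. The labels call both libraries biological replicates.

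Summits from the 4 lists on ce11 were placed in the WBcel235 genes of Ensembl release 115, and sequence was read from the RefSeq copy. Positions are 1-based. A member's replicate peak is the strongest it overlaps. Shares carry exact binomial and densities exact Poisson intervals. With 1 group and no counts, no test was made. Members and gene lists were chosen with earlier results of these data known. The CG words were chosen from the optimal peaks of these data, and the words GAGAGA and GTTCGANNC after values were seen. Named were the 20 strongest members, hosts with at least 4, up to 4 hosts per list and peaks next to the optimal list. Scripts were tested on simulated data with planted peaks and words. Python 3.11.15, numpy 2.4.6, pandas 2.3.3, scipy 1.17.1 and matplotlib 3.10.9 were used.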

Additional observations from a re-analysis of the deposited data

How the results depend on the processing

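No paired analysis was possible because both libraries belong to 1 group and their numbers pair no samples. The depth is unknown, the number of members depends on where the relaxed lists end, and an overlap of 1 bp admits edges. With each replicate left out in turn there were 3804 to 5545 members, the share near small RNA genes was 1.70% to 2.16%, the share in windows of transcript 5′ ends 16.6% to 17.8%, the CG word excess at the summit 0.947 to 2.42 points, the homeodomain word excess 0.986 to 2.43 points, the G and C difference from the flanks -1.49 to -0.495 points and the chemoreceptor ratio 0.605 to 0.822. In the upper 50% by pooled signal (941 members) the G and C difference was 1.49 points, the homeodomain word excess -0.425 points (1.30 for all members), the share near small RNA genes 5.31%, the Wnt ratio 4.76 and rho between replicates -0.0309. With flanks wholly in eligible intron, chosen after seeing the data, the G and C difference was 2.97 points, the homeodomain word excess -0.517 points and the CG word excess 4.85 points. Summit windows of 100 bp to either side gave a G and C difference of 0.498 points and a CG word excess of 5.58 points, and windows of 25 bp to either side an excess of 1.86 points. A gene 5′ window of 500 bp upstream to 0 bp downstream gave a median distance of 2083 bp, a median intron of 948.5 bp, 26.9% in first introns and 31.2% in windows of transcript 5′ ends. One reaching 2000 bp upstream gave a distance of 2884.5 bp and an intron of 1173 bp. With windows of every transcript barred, 17.6% lay in first introns. With exons of every biotype barred, which removes summits inside small RNA genes, 1.78% lay near a small RNA gene and 1.00% in repeated sequence, and a distance of 500 bp gave 4.31%. The cause of the other moves was not tested. Members that took no replicate peak of a stronger pooled peak, a choice also made after seeing the data, gave 12 of 12 values within the ranges of the full set. These 1680 are most of the same 1881 members, so their values could hardly differ much. For the number of members the range was a chosen one, 1254 to 2821.5, and not a confidence interval.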
